A study of Mus musculus with 12 samples.

Results

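The 10 genes described here encode the insulator protein CTCF (*Ctcf*), the subunits of the cohesin ring (*Rad21*, *Smc1a*, *Smc3*, *Stag1*, and *Stag2*), the core of Polycomb repressive complex 2, or PRC2 (*Ezh2*, *Suz12*, and *Eed*), and the nucleolar protein nucleophosmin (*Npm1*). They were chosen by name, as chromatin looping and Polycomb genes tied to the biology of the lncRNA locus *Firre*. All 10 were found by symbol among the 47643 genes of the deposited table, and all 10 were among the 14479 genes tested, those with a mean of at least 1 TPM (transcript abundance per length, scaled to one total in every library) over the 12 libraries. The libraries are poly(A)+ RNA-seq of common lymphoid progenitors (CLPs), the bone marrow cells from which B and T cells arise, sorted as lineage-negative, Sca1-low, cKit-low, and IL7Rα-positive cells from adult, age-matched male mice. There were 4 WT, 4 ∆*Firre* (knockout), and 4 dox-fed *Firre* rescue mice, with 1 library each. Libraries are named by group and by the number in their label. The ∆*Firre* allele lacks the whole gene body and promoter of the X-linked *Firre* locus, which was removed in the germline with CMV-Cre, and is carried by the *Firre* rescue mice as well. The *Firre* rescue mice also carry a *Firre* cDNA under a tet-responsive element and a constitutively expressed rtTA activator, and were fed doxycycline, so that *Firre* RNA comes from the transgene alone. Doxycycline feeding is not described for the WT and ∆*Firre* mice, so transgene, rtTA, and doxycycline cannot be told apart in the rescue.

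CTCF binds DNA at a long motif through its zinc fingers. Cohesin is a ring of SMC1A, SMC3, and RAD21, to which either STAG1 or STAG2 is bound, and it extrudes chromatin into loops until it meets CTCF. In PRC2, EZH2 places methyl groups on lysine 27 of histone H3, SUZ12 holds the complex together, and EED binds the methylated product. In early lymphoid cells, CTCF and cohesin shape the antigen receptor loci that are recombined at this stage, and EZH2 is known from B cell progenitors as a factor of heavy-chain recombination. CTCF and cohesin bind at the *Firre* locus, and *Firre* RNA has been tied to the perinucleolar placement of the inactive X chromosome and its H3K27me3, with CTCF and nucleophosmin among the proteins involved.

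*Firre* served as the check of the labels. It was at 25.2 to 31.6 TPM in the WT libraries, was listed at 0 in every ∆*Firre* library with 0 recovered reads, and lay between 59.9 and 174 TPM in the *Firre* rescue libraries. The labelled cell type was checked against 9 CLP genes, all of which were above 0 in every group. *Il7r* (353 to 525 TPM over the 12 libraries) and *Flt3* (506 to 709 TPM) overlapped among the 3 groups. *Dntt* was at 4315 to 6725 TPM in WT, 5443 to 5681 TPM in ∆*Firre*, and 6224 to 6562 TPM in the rescue. Each rescue library thus lay above each ∆*Firre* library for *Dntt*, while the WT range spanned both. *Rag1* was at 277 to 334 TPM in the rescue and 141 to 251 TPM in the other libraries. Of the 9 genes, *Rag1* was called higher against both groups on the deposited scale and 2 were called lower, where 8.58% of all genes were called higher and 19.3% lower than in ∆*Firre*. *Ptprc* was at 83.3 to 110 TPM in the rescue and 123 to 150 TPM in the other libraries, and *Kit*, the gene of a sort marker, at 48.2 to 62.3 TPM and 61.9 to 82.9 TPM. After a correction for GC content 5 of the 9 were called higher and 0 lower (13.7% and 5.8% of all genes against ∆*Firre*), with log2 differences of −0.14 for *Ptprc* and −0.20 for *Kit* from ∆*Firre*. Reads recovered from the spacing of the TPM values numbered 10900924 to 18009467 in the WT, 14232444 to 17413468 in the ∆*Firre*, and 25531670 to 32302565 in the *Firre* rescue libraries. The 10 genes are deeply covered, and the least covered value, *Eed* in its shallowest library, rests on 1338 reads. The *Firre* rescue libraries form a range of library numbers of their own, so that the rescue and this range cannot be told apart, whereas the other ranges hold 2 WT and 2 ∆*Firre* libraries each.

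Most of the 10 genes were among the more abundant transcripts of WT CLPs. *Npm1*, which encodes a histone and ribosome chaperone of the nucleolus, had the highest level, 1752 ± 189 TPM (SD, n = 4), above 99.6% of the genes tested. *Rad21*, the subunit that closes the ring, followed at 340.0 ± 11.8 TPM. The SMC subunits came next, *Smc1a* at 233 ± 10.4 TPM and *Smc3* at 214 ± 19.0 TPM, and their libraries overlapped. *Ctcf* at 212 ± 12.5 TPM and *Suz12* at 207 ± 4.83 TPM overlapped with *Smc3* and with each other. *Stag2* followed at 185 ± 19.6 TPM and *Ezh2* at 142 ± 12.8 TPM, and the lowest *Stag2* library lay within the range of *Ezh2*. *Eed*, at 92.4 ± 8.24 TPM, and *Stag1*, at 50.7 ± 4.62 TPM, were apart from all the others. The STAG paralogs therefore stood at a *Stag1* to *Stag2* ratio of 0.248 to 0.296 in the WT libraries. *Ezh1*, the paralog of *Ezh2*, was at 33.7 ± 3.59 TPM, and *Ezh2* exceeded it by 3.77 to 4.86 times. TPM is divided by gene length, so that levels may be set side by side between genes. *Npm1* has processed copies in the mouse genome, and how reads that fit several places were counted is not given in the sources used here, so that its level is less certain. According to the RefSeq gene table, 5 of the 10 genes overlap other annotated genes, among them *Ribc1* at *Smc1a* and a lncRNA at *Ezh2*, and reads of overlapping genes could not be told apart without strand.

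**Figure D1:**
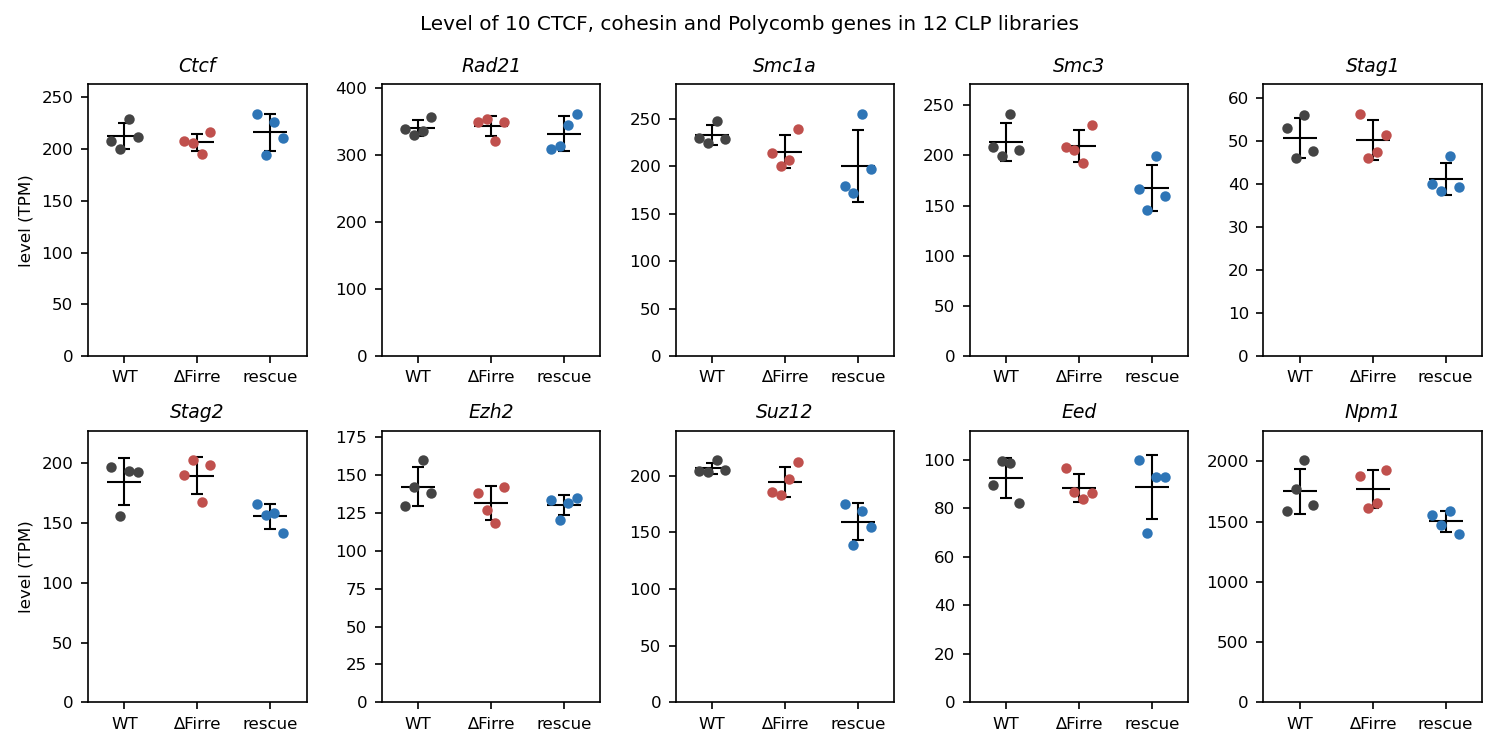
Level in TPM (y axis, from 0) of each of the 10 genes in the WT, ∆*Firre*, and *Firre* rescue libraries (x axis; 4 points per group, 1 per library, with the mean and SD as black bars). WT and ∆*Firre* points overlap for every gene, and the rescue points of *Stag2*, *Suz12*, and *Npm1* lie below all ∆*Firre* points on this deposited scale, a direction that the GC correction turned.

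Promoter sequences of 7 of the genes were found in the RefSeq table (GRCm38.p6). The 250 bases before the transcript start that this table uses are shown for *Suz12* and *Smc3*, which stood furthest below WT in the *Firre* rescue on the deposited scale (a sign that a correction for GC content turned), and for *Ctcf* and *Ezh2*, partners in looping and in PRC2 that were not called on that scale. Each is written 5′ to 3′ on the gene's strand, with motif matches on either strand in capitals. *Suz12* lies at chr11:79992856-79993105 on the plus strand, *Smc3* at chr19:53600146-53600395 on the plus strand, *Ctcf* at chr8:105636288-105636537 on the plus strand, and *Ezh2* at chr6:47595031-47595280 on the minus strand. For *Ctcf* and *Ezh2*, as for *Stag1*, that start lies inside the annotated gene rather than at its outermost end, so part or nearly all of the *Ctcf* and *Ezh2* windows lies within the gene.
Suz12: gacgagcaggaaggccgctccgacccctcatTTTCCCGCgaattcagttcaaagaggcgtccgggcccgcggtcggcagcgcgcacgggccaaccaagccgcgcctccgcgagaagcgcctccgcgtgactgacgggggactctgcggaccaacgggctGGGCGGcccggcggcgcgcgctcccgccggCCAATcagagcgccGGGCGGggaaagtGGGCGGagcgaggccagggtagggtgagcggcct
Smc3: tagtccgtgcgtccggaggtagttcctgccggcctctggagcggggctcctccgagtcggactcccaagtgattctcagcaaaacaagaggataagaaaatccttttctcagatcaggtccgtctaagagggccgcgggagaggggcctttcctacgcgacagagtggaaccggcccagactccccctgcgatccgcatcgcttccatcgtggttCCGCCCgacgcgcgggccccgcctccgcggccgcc
Ctcf: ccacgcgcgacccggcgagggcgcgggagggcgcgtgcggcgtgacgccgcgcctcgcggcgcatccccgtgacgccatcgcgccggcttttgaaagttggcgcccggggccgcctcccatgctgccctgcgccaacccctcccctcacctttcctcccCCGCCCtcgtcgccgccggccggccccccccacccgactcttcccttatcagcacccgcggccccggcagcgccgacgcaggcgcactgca
Ezh2: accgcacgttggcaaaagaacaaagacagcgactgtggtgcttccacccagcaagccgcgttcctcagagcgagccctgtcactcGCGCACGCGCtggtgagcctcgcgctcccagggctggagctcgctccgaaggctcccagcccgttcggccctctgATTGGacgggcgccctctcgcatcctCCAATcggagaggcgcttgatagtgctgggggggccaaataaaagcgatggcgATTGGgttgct
The CCAAT box (CCAAT) occurs 3 times before *Ezh2* and 1 time before *Suz12*, against at least 1 match in 33.9% of all 32851 promoters of the table cut in the same way. An SP1 box (GGGCGG), found in 32.7% of all promoters, occurs 3 times before *Suz12* and 1 time each before *Smc3* and *Ctcf*. The *Suz12* sequence also holds 1 E2F motif (TTTCCCGC, 0.895% of all promoters), and the *Ezh2* sequence 1 NRF1 motif (3.74%). The *Ctcf* sequence is the richest in CpG pairs, with 40, and the 4 sequences hold 23 to 40 where the median promoter holds 6. The core of the CTCF motif, matched in 2.07% of all promoters, was in none of the 7 windows. The remaining motifs searched were an ETS motif (CCGGAAG, 6.91%), a YY1 motif (AANATGGC, 3.91%), a second E2F motif (TTTGGCGC, 0.417%), and the TATA box (TATAAA, 12.4%). Of these, the YY1 motif occurs 1 time, before *Stag1*, and no motif searched was found before *Eed*. Both strands were searched, and SP1 and E2F matches can share bases. A match is a description of letters and not a bound site.

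The first comparison, ∆*Firre* against WT, asks whether the levels of these genes differed in CLPs that lack *Firre*. *Ctcf* was at 208, 200.3, 229.7, and 212 TPM in the WT libraries (numbers 6, 8, 10, and 11) and at 208, 206, 196, and 217 TPM in the ∆*Firre* libraries (numbers 8, 9, 11, and 12), the order used throughout. The libraries of the groups overlapped throughout. The difference in log2(TPM + 1) was −0.040 (95% CI −0.21 to 0.13, limma adjusted p = 1), where limma was fitted to all 14479 genes and p-values were adjusted by the Benjamini-Hochberg method. None of the 10 genes reached the threshold for a call, an adjusted p up to 0.1 (0 of 10, where 0.0207% of all genes tested were called), and 0 of 10 had an unadjusted p under 0.05, which 5.3% of all genes had. The number was also 0 of 10 with libraries rescaled by the median ratio of their genes (background 0.0207%), after a correction for GC content (background 0.0153%), and with limma-voom on the recovered reads (background 0%). In this comparison limma-voom did not call *Firre* itself either (log2 difference −11.2, standard error 3.77), although *Firre* had 0 reads in every ∆*Firre* library. Its 0 of 10 therefore cannot decide whether these genes differed.

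Among the cohesin genes, *Smc1a* showed the lowest value relative to WT. It was at 229.7, 225, 248, and 229 TPM in WT and at 214, 200.4, 207, and 239.8 TPM in ∆*Firre* libraries, with 3 of 4 ∆*Firre* libraries below all WT libraries. The log2 difference was −0.12 (95% CI −0.36 to 0.13). *Rad21* was at 338, 329, 336, and 357 TPM in WT and at 348, 354, 321, and 348 TPM in ∆*Firre* libraries, and *Smc3* at 208, 199.7, 242, and 206 TPM against 209, 205, 193, and 230.2 TPM. Both overlapped between the groups, with log2 differences of 0.012 and −0.030. *Stag2*, the more abundant STAG subunit, was at 197, 156, 193, and 193 TPM in WT and 191, 203, 168, and 198 TPM in ∆*Firre* libraries, with WT library 8 apart below the others. *Stag1* was at 53.0, 46.0, 56.0, and 47.8 TPM against 56.4, 46.1, 47.4, and 51.4 TPM, and its lowest and highest libraries were almost alike in both groups.

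The PRC2 genes overlapped between WT and ∆*Firre* CLPs as well. *Ezh2*, the methyltransferase, was at 129, 142, 159.7, and 138 TPM in WT and at 138, 127, 118, and 142 TPM in ∆*Firre* libraries (log2 difference −0.11, 95% CI −0.31 to 0.077). *Suz12* was at 204, 204, 214, and 205 TPM against 186, 183, 197, and 212 TPM, with 3 of 4 ∆*Firre* libraries below WT (log2 difference −0.090, 95% CI −0.27 to 0.092). *Eed* was at 89.5, 99.4, 98.6, and 82.0 TPM against 96.6, 86.9, 83.6, and 86.4 TPM. *Npm1* was at 1587, 1768, 2011, and 1642 TPM in WT and at 1882, 1616, 1655, and 1927 TPM in ∆*Firre* libraries, which covers nearly the same range.

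Over the 10 genes, the log2 differences between ∆*Firre* and WT ran from −0.12 to 0.042 with a median of −0.035, where the median of all genes tested was −0.058. The widest bounds of the 95% CIs, −0.36 for *Smc1a* and 0.25 for *Stag2*, correspond to 0.778 and 1.19 times the WT level. The fit pools the spread over the 3 groups, so these intervals carry that of the rescue libraries too. A p above the threshold does not show equal levels, but differences beyond these bounds lie outside the intervals of the deposited scale. The widest bounds were 0.848 and 1.27 times WT after rescaling, 0.775 and 1.14 times after the GC correction, and 0.843 and 1.26 times with limma-voom. Among the 4 libraries numbered 8 and 11, which form 1 range, the differences ran from −0.13 (*Ezh2*) to 0.14 (*Stag1*), and in the other range from −0.16 (*Stag1*) to 0.059 (*Rad21*). The interaction of genotype with range had a limma adjusted p of at least 0.956 for each of the 10 genes.

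The remaining comparisons set the *Firre* rescue against ∆*Firre*, to ask what differed once *Firre* RNA came from a transgene, and against WT. They share the 4 rescue libraries and are not independent of each other. In both, the answer depended on how libraries were put on a common scale. On the deposited TPM scale, 5 of the 10 genes were called in *Firre* rescue against ∆*Firre* CLPs, and all 5 were lower (*Smc3*, *Stag1*, *Stag2*, *Suz12*, and *Npm1*), where 27.9% of all genes tested were called and 19.3% were called lower. After rescaling, 1 gene was called (*Ctcf*, higher), where 13% of all genes were called higher, and with each library corrected for GC content 4 were called (*Ctcf*, *Rad21*, *Ezh2*, and *Eed*), all higher, where 13.7% were called higher. With limma-voom 0 were called, where 28.5% of all genes were, and 3 of 10 had an unadjusted p under 0.05, which 34.3% of all genes had. Against WT, 3 genes were called on the deposited scale, all lower (*Smc3*, *Stag1*, and *Suz12*), where 24.3% of all genes were called and 19.4% were called lower. After rescaling, *Ctcf* was called higher and *Suz12* lower (background 8.9% higher and 8.67% lower), after the GC correction *Ctcf* and *Rad21* were called higher (background 10.2%), and with limma-voom *Ctcf* alone (background 8.36%). The median difference of all genes was itself −0.16 on the deposited scale in *Firre* rescue against ∆*Firre* and −0.21 against WT, and moved to −0.052 and −0.034 after rescaling and to 0.079 and 0.043 after the GC correction.

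*Ctcf* lay above the median of all genes on each scale. Its level in the *Firre* rescue libraries was 234, 194, 227, and 211 TPM (numbers 1 to 4), which spans the WT and ∆*Firre* libraries. The difference from ∆*Firre* in log2(TPM + 1) was 0.066 (standard error 0.078, limma adjusted p = 0.591), rescaled 0.18 (adjusted p = 0.0944) and GC-corrected 0.34 (adjusted p = 0.00763). Relative to the median of all genes it was 0.23, 0.24, and 0.26 on the 3 scales. Against WT the differences were 0.026, 0.21 (adjusted p = 0.0755), and 0.29 (adjusted p = 0.0215). The sign was positive on all of these scales, whereas the call rested on the rescaled and GC-corrected ones.

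Of the cohesin genes, *Smc3*, the SMC subunit whose acetylation locks the ring on chromatin, was at 166, 145, 199, and 159 TPM in the rescue, with 4 of 4 libraries below all WT libraries and 3 of 4 below all ∆*Firre* libraries. The mean of 167 ± 22.8 TPM (SD, n = 4) was 19.97% below ∆*Firre* and 21.7% below WT, and the log2 differences were −0.33 (95% CI −0.55 to −0.10, limma adjusted p = 0.0437) and −0.36 (95% CI −0.58 to −0.13, limma adjusted p = 0.034). They moved to −0.21 and −0.17 after rescaling and turned to 0.11 and 0.044 after the GC correction, with no call on either scale. Without ∆*Firre* library 12 the call of *Smc3* against ∆*Firre* was lost (limma adjusted p = 0.117). *Stag1* was at 40.1, 38.4, 46.6, and 39.3 TPM in the rescue, with 1 library among those of the other groups. Its log2 difference from ∆*Firre* was −0.29 (limma adjusted p = 0.0797), rescaled −0.17, and turned to 0.19 after the GC correction. *Stag2*, the paralog that takes the same place in the ring, was at 166, 157, 159, and 142 TPM, below all ∆*Firre* libraries, while WT library 8 fell within its range. The log2 difference of *Stag2* was −0.28 from ∆*Firre* (limma adjusted p = 0.0563) and −0.24 from WT (limma adjusted p = 0.104), and both turned to 0.18 after the GC correction.

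The other ring subunits were not called on the deposited scale. *Rad21* was at 309, 313, 345, and 362 TPM in the rescue, with the 2 lowest and the highest values of all 12 libraries. Its differences were −0.050 from ∆*Firre* and −0.038 from WT, turned to 0.070 and 0.15 after rescaling, and to 0.31 and 0.30 after the GC correction (limma adjusted p = 0.0135 and 0.0205). *Smc1a* was at 179, 172, 256, and 197 TPM, and its coefficient of variation of 19.0% in the rescue was above that in WT (4.44%) and ∆*Firre* (8.02%). Rescue library 3 held the highest *Smc1a* value of the 12 and the other 3 the lowest values. Without that library the difference from ∆*Firre* was −0.24 (limma adjusted p = 0.0558), and that from WT −0.35 (limma adjusted p = 0.0116), where with it they were −0.12 (adjusted p = 0.504) and −0.23 (adjusted p = 0.185). With all libraries, the *Smc1a* differences were 0.0030 and −0.042 after rescaling and 0.21 and 0.069 after the GC correction, and none of these was called.

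In PRC2, *Suz12* was the only one of the 3 genes called on the deposited scale. It was at 175, 139, 169, and 155 TPM in the rescue, below every library of both other groups. The mean of 159.5 ± 16.2 TPM (SD, n = 4) was 17.9% below ∆*Firre* and 22.8% below WT, with log2 differences of −0.29 (95% CI −0.47 to −0.10, limma adjusted p = 0.0331) and −0.38 (95% CI −0.56 to −0.19, limma adjusted p = 0.011). After rescaling the differences were −0.17 (adjusted p = 0.107) and −0.19 (adjusted p = 0.0965), and they turned to 0.16 and 0.034 after the GC correction. On the deposited scale *Suz12* was called lower in both comparisons whichever library was left out (limma adjusted p up to 0.0925 and 0.0306). *Ezh2* was at 133, 120.5, 132, and 135 TPM in the rescue, within the spread of ∆*Firre*. Its difference from ∆*Firre* was −0.012, turned to 0.11 after rescaling and to 0.36 (limma adjusted p = 0.0154) after the GC correction, and that from WT went from −0.13 to 0.063 and 0.22. *Eed* was at 99.8, 69.7, 92.9, and 92.7 TPM, with library 2 the lowest of the 12. Its difference from ∆*Firre* was −0.0037 on the deposited scale, turned to 0.11 after rescaling, and was 0.31 (limma adjusted p = 0.0835) after the GC correction.

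*Npm1* was at 1552, 1469, 1591, and 1398 TPM in the rescue, below all ∆*Firre* libraries, with 1 rescue library above the lowest WT library. The mean of 1502.5 ± 86.4 TPM was 15.1% below ∆*Firre* and 14.2% below WT. Its log2 difference from ∆*Firre* was −0.23 (limma adjusted p = 0.0958) and that from WT −0.22 (adjusted p = 0.131). The call against ∆*Firre* was lost in 8 of the 12 fits with a library left out. After rescaling the differences were −0.11 (limma adjusted p = 0.470) and −0.027. Both turned positive after the GC correction, to 0.23 and 0.21, with no call on either scale. Relative to the median of all genes they were −0.073 and −0.0087 on the deposited scale. The groups did not overlap, with the rescue lower, for 3 of the 10 genes against ∆*Firre* (*Stag2*, *Suz12*, and *Npm1*), where this held for 15.6% of all genes, and for 2 of 10 against WT (*Smc3* and *Suz12*), where it held for 14.5%.

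**Figure D2:**
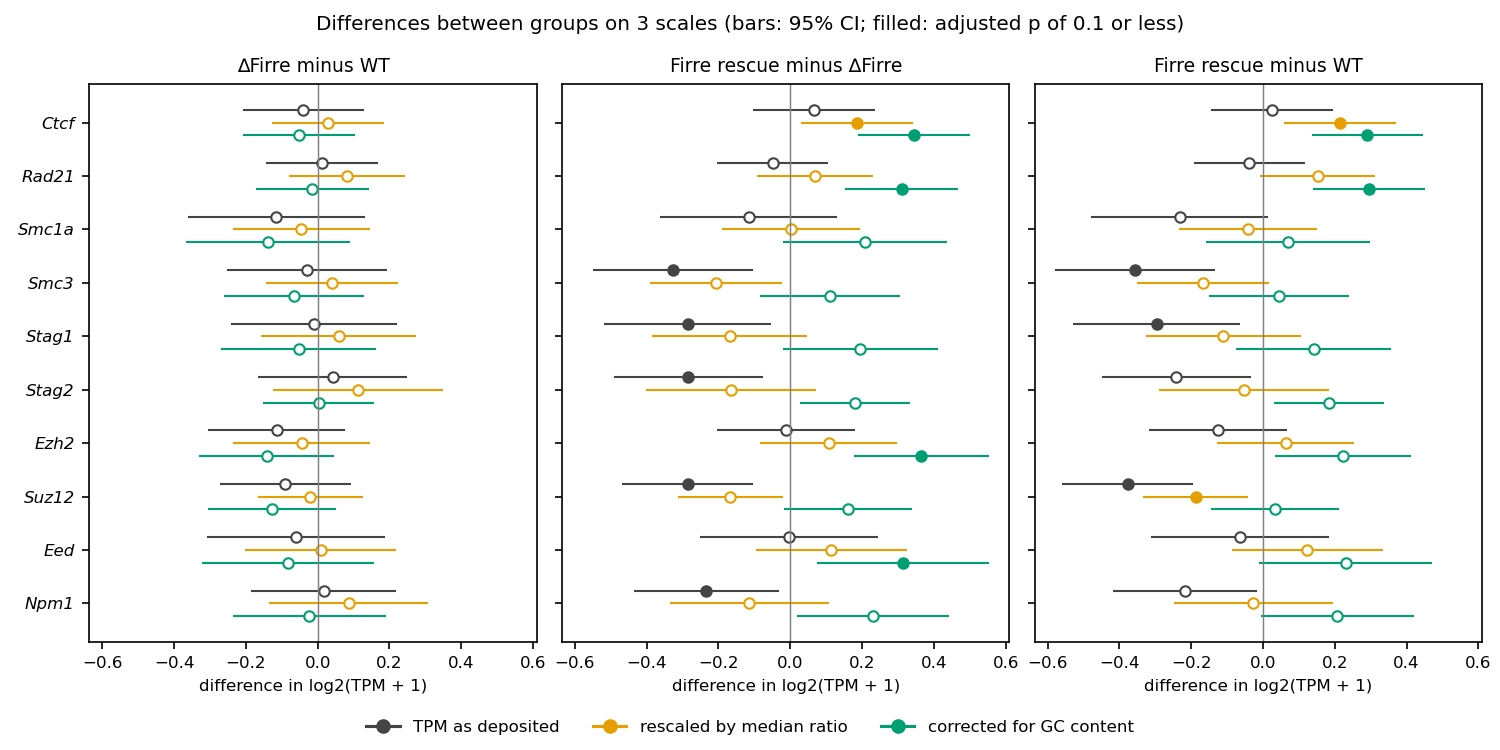
Difference in log2(TPM + 1) between groups (x axis) for each of the 10 genes (y axis) with its 95% CI, on the deposited TPM scale (grey), after rescaling by the median ratio (orange), and after GC correction (green), with filled points for an adjusted p of 0.1 or less. No point is filled for ∆*Firre* minus WT, and in both rescue panels the filled points lie to the left of 0 on the deposited scale and to the right of 0 after GC correction, where they are other genes.

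The calls in the *Firre* rescue ran parallel to the GC content of the genes. Exon GC content was between 39.5% (*Stag1*) and 48.5% (*Ctcf*) for the 10 genes, all of them below the median of 49.5% over the 13086 tested genes with a value. The 5 genes called lower against ∆*Firre* on the deposited scale were the 5 with the lowest GC content, *Stag1*, *Stag2* (40.2%), *Npm1* (40.2%), *Suz12* (41.0%), and *Smc3* (41.5%). All 5 lie in the lowest of 5 equal bins of the tested genes by GC content (2618 genes, up to 43.9%), whose median difference between *Firre* rescue and ∆*Firre* was −0.36, against 0.27 in the highest bin. Across the 10 genes, which share the same libraries, GC content and the difference from ∆*Firre* had a Pearson r of 0.90, and across all 13086 genes r was 0.33. Against WT the values were 0.77 and 0.24. For ∆*Firre* against WT, r was −0.46 over the 10 genes, and the bins ran from 0.012 in the lowest to −0.23 in the highest. The correction fits each library's values to GC content by a spline, and the part of GC content in the differences was not tested beyond it.

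**Figure D3:**
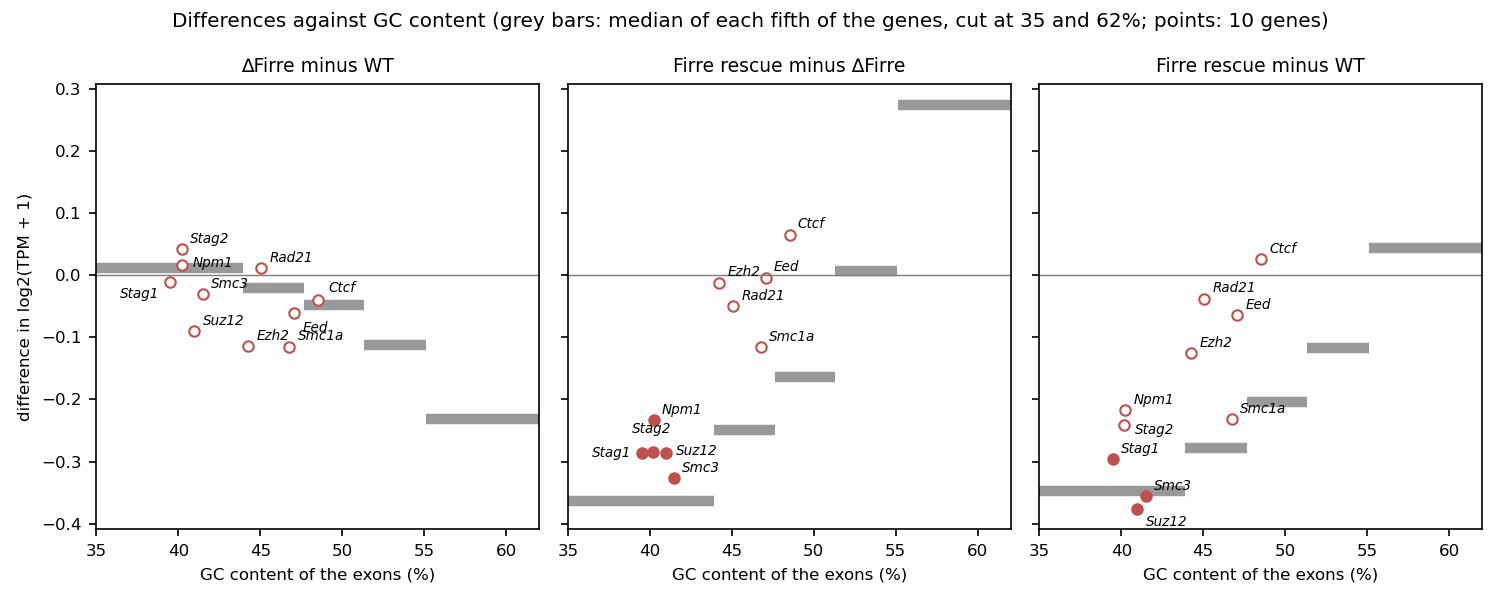
Difference in log2(TPM + 1) on the deposited scale (y axis) against exon GC content in percent (x axis) for the 10 genes (points, filled where called) and the median of each of 5 equal bins of the tested genes by GC content (grey bars, drawn between 35 and 62%). In both rescue panels the grey bars climb with GC content and the called genes sit at the low end, whereas in ∆*Firre* minus WT the bars decline.

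Ratios of 2 genes within a library do not depend on the scale between libraries. Over the 70 ways to label 8 libraries, the smallest two-sided exact permutation p is 0.0286, which 5 of the 21 tests (7 ratios in 3 comparisons) reached, and 0 of the 21 passed 0.1 after Benjamini-Hochberg adjustment (the lowest adjusted p was 0.12). The *Suz12* to *Ezh2* ratio was at 1.58, 1.43, 1.34, and 1.49 in WT, at 1.34, 1.44, 1.67, and 1.49 in ∆*Firre*, and at 1.31, 1.15, 1.29, and 1.15 in *Firre* rescue libraries. Each rescue library lay below all others, with a log2 difference of −0.28 from ∆*Firre* and −0.25 from WT (exact permutation p = 0.0286, adjusted p = 0.12, for both). After the GC correction the corresponding differences were −0.20 and −0.19, so that the direction did not turn.

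Among cohesin subunits, the *Rad21* to *Smc3* ratio was at 1.67, 1.72, 1.67, and 1.51 in ∆*Firre* and at 1.86, 2.15, 1.73, and 2.27 in *Firre* rescue libraries. The groups were apart by a narrow margin (log2 difference 0.28, exact permutation p = 0.0286, adjusted p = 0.12), and the GC-corrected difference was 0.20. In WT the ratio was at 1.62, 1.65, 1.39, and 1.74, and 1 WT library overlapped with the rescue. The *Smc1a* to *Smc3* ratio was higher in each rescue library (1.08 to 1.28) than in each ∆*Firre* library (0.977 to 1.07), but overlapped with WT (1.03 to 1.13), and the GC correction took the difference from ∆*Firre* from 0.21 to 0.098. The *Stag1* to *Stag2* ratio, between genes of like GC content, was at 0.227 to 0.296 in ∆*Firre* and 0.242 to 0.294 in the rescue, with a log2 difference of −0.0068 (exact permutation p = 0.914). The *Ezh2* to *Ezh1* ratio was at 4.95 to 5.55 in the rescue against 3.77 to 4.86 in WT (log2 difference 0.33, exact permutation p = 0.0286, adjusted p = 0.12), with ∆*Firre* at 4.16 to 5.25, overlapping both. *Eed* to *Ezh2* and *Ctcf* to *Rad21* overlapped in all comparisons.

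**Figure D4:**
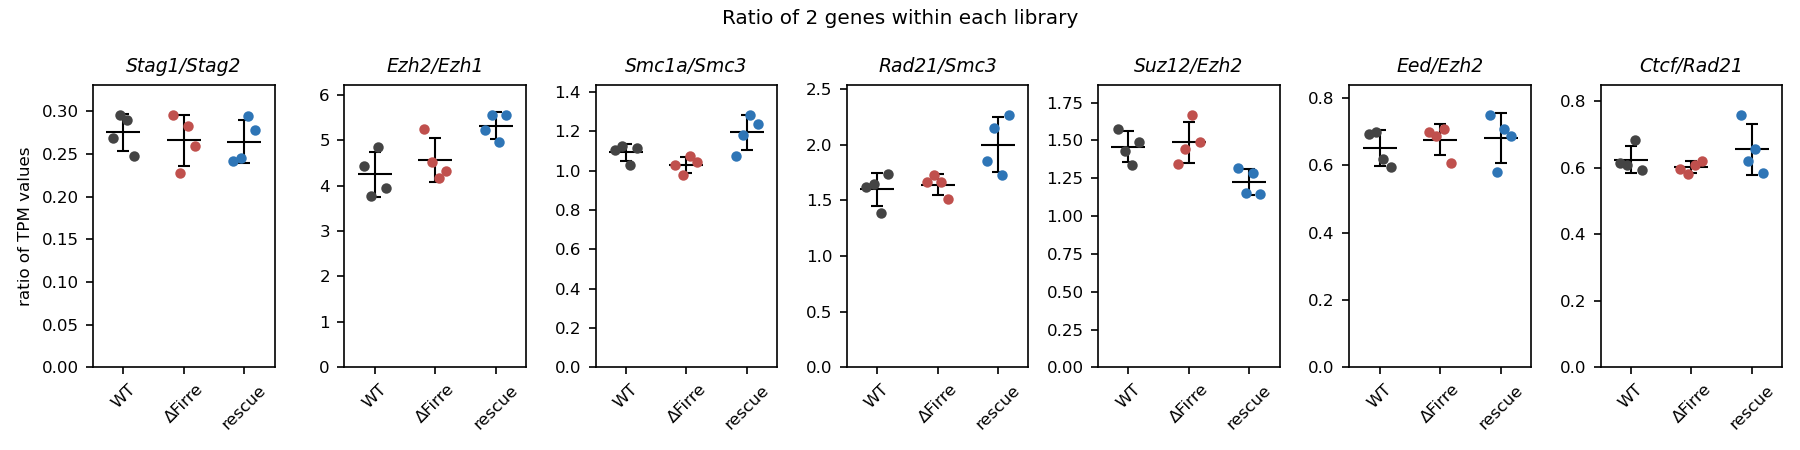
Ratio of the TPM values of 2 genes within each library (y axis, from 0) in the WT, ∆*Firre*, and *Firre* rescue libraries (x axis; 4 points per group, with the mean and SD as black bars). The *Suz12* to *Ezh2* ratio lies between 1.15 and 1.31 in the rescue, below all other libraries, and the *Stag1* to *Stag2* ratio overlaps among the groups.

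The 8 other lists of the same pathways hold 80 genes, 77 of which were tested. Between ∆*Firre* and WT, 0 of the 77 were called on any of the scales, limma-voom included, which did not call *Firre* either. In *Firre* rescue against ∆*Firre*, 7 were called higher and 18 lower on the deposited scale, 15 higher and 13 lower after rescaling, and 15 higher and 1 lower after the GC correction. Of all genes tested, 8.58% were called higher and 19.3% lower on the deposited scale, 13% and 12.9% after rescaling, and 13.7% and 5.8% after the GC correction. Against WT the numbers were 2 and 20, 9 and 6, and 9 and 2 of the 77, beside 4.82% and 19.4%, 8.9% and 8.67%, and 10.2% and 5.04% of all genes. In *Firre* rescue against ∆*Firre*, the cohesin loader and the release factor were the cohesin regulators called on the deposited scale (2 of 13, both lower). In the same comparison, 2 were called higher and 2 lower after rescaling, and 3 higher and 0 lower after the GC correction. *Nipbl*, which loads cohesin and drives loop extrusion, was at 121 ± 2.45 TPM in ∆*Firre* and 81.0 ± 16.4 TPM in the rescue (SD, n = 4 each; log2 difference −0.59, limma adjusted p = 0.00622). *Wapl*, which takes cohesin off chromatin and is listed under its older symbol Wapal, was at 129.9 ± 5.61 and 90.3 ± 9.77 TPM (log2 difference −0.53, limma adjusted p = 0.00269). Both were called lower after rescaling too, at −0.47 and −0.41, and had values of −0.19 (adjusted p = 0.263) and −0.11 (adjusted p = 0.459) after the GC correction. Relative to WT, *Nipbl* was called lower on all 3 scales, at −0.67, −0.48, and −0.30.

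Of 8 further CTCF and looping partners, *Maz* was called higher in the rescue than in ∆*Firre* on the deposited scale (248 ± 48.4 against 189 ± 13.5 TPM), and *Ddx5* and *Yy1* lower. After rescaling 3 of the 8 were called higher and 0 lower, and after the GC correction 0 were called in either direction. The value for *Maz* turned from 0.37 to −0.25 after the GC correction, and that for *Ddx5* from −0.32 to 0.081. That for *Yy1* kept its sign without a call, going from −0.28 to −0.16 after rescaling (limma adjusted p = 0.252) and to −0.15 after the GC correction (limma adjusted p = 0.349). The condensin and SMC5/6 list had 3 genes called higher and 2 lower of 11, on the deposited scale and after rescaling, and 7 higher and 0 lower after the GC correction. The condensin subunits *Ncaph* (55.03 ± 3.73 TPM in ∆*Firre* and 83.1 ± 13.6 TPM in the rescue) and *Ncapd2* (129.8 ± 10.6 and 183 ± 27.8 TPM) were called higher on all 3 scales and against both other groups. *Ncaph2* was higher than in ∆*Firre* on all 3 scales. *Smc4*, the ATPase of condensin, was called lower on the deposited scale at −0.41, with 0.072 after the GC correction, and *Smc5*, of the SMC5/6 complex, was called lower at −0.65, with −0.25 after the GC correction. In a list of 5 genes, meiotic cohesin subunits and the CTCF paralog *Ctcfl*, 2 reached the level for testing and 0 were called.

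Of 8 further PRC2 genes, the accessory subunits *Mtf2* and *Aebp2* were called lower in the rescue than in ∆*Firre* on the deposited scale. *Mtf2* was at 151 ± 6.64 TPM in ∆*Firre* and 117 ± 14.9 TPM in the rescue, and *Aebp2* at 48.4 ± 1.20 and 39.2 ± 6.23 TPM. Their differences of −0.37 and −0.31 turned to 0.12 and 0.039 after the GC correction. *Ezh1* was called lower than in WT (24.5 ± 2.07 against 33.7 ± 3.59 TPM, log2 difference −0.44, limma adjusted p = 0.0268), with −0.26 (adjusted p = 0.129) after rescaling and −0.19 after the GC correction. In the PRC1 list, 2 genes were called higher than in ∆*Firre* and 5 lower of 21 on the deposited scale, 3 and 3 after rescaling, and 1 and 1 after the GC correction. *Cbx7*, a chromodomain subunit that reads H3K27me3, had a mean of 13.2 ± 2.27 TPM in WT and of 14.96 ± 1.90 TPM in ∆*Firre*, against 7.78 ± 2.06 TPM in the rescue. It was called lower on all 3 scales and against both groups, with −0.88, −0.77, and −1.07 from ∆*Firre*. *Phc2* was called higher than in ∆*Firre* on the deposited scale (0.71, with 0.36 after the GC correction), and *Pcgf3* and *Phc3* lower (−0.55 and −0.50, with −0.17 and −0.071 after the GC correction). Of the H3K27 demethylases, *Kdm6a* was called lower (−0.48, with −0.051 after the GC correction). In the nucleolar list of 12 genes, 1 was called higher than in ∆*Firre* (*Ubtf*, a factor of rRNA transcription) and 4 lower on the deposited scale, among them *Dkc1*, *Gnl3*, and *Ncl*. The numbers were 3 and 4 after rescaling and 2 and 0 after the GC correction. The shares of all genes called higher and lower were 8.58% and 19.3% as deposited, 13% and 12.9% rescaled, and 13.7% and 5.8% GC-corrected. *Ncl*, nucleolin, was at 567 ± 60.0 TPM in ∆*Firre* and 433 ± 55.02 TPM in the rescue (−0.39, with 0.012 after the GC correction).

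**Figure D5:**
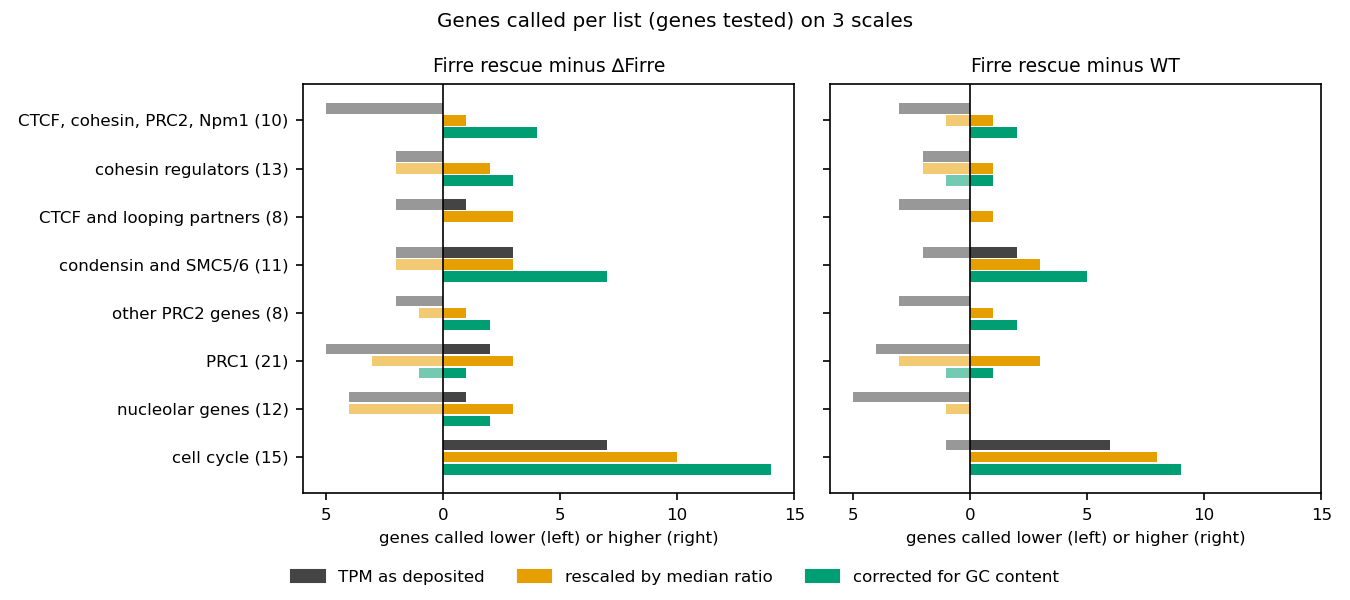
Number of genes called lower (left of 0, paler bars) or higher (right of 0) in each list (y axis, with the number tested) in *Firre* rescue minus ∆*Firre* and minus WT, on the deposited TPM scale, after rescaling, and after GC correction. The 10 genes go from 5 called lower to 4 called higher against ∆*Firre* between the first and the last scale.

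Over the 12 libraries, the deviations from the group means had a positive Pearson r for 42 of the 45 pairs of the 10 genes, which share depth, scaling, and sorting, and for 53.9% of all pairs of tested genes. The highest values were for *Smc1a* and *Smc3* (0.88), *Ctcf* and *Smc3* (0.82), *Ezh2* and *Npm1* (0.81), and *Ctcf* and *Suz12* (0.80). *Rad21* had lower values with the other ring subunits, 0.47 with *Smc1a* and 0.34 with *Smc3*, −0.031 with *Suz12*, and −0.13 with *Npm1*. *Stag2* had 0.11 with *Smc1a* and −0.11 with *Eed*. Outside the lists, the genes most like *Ctcf* in log2(TPM + 1) over the 12 libraries were *Pkd1l3* (r = 0.87), *Arl13b* (0.87), and *Atxn7l2* (0.84). Those most like *Ezh2* were *Iars2* (0.88), *Cdc123* (0.88), and *Smyd2* (0.84), and those most like *Npm1* were *Fn1* (0.95), *4930422G04Rik* (0.94), and *Dek* (0.92). Over the 8 WT and ∆*Firre* libraries alone, these r values were between 0.70 (*Pkd1l3*) and 0.94 (*Fn1*). *Fn1* and *Pkd1l3* had mean levels of 1.79 and 2.03 TPM, near the filter of 1 TPM. All of these genes were picked as the highest r among the tested genes, a description without a test.

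Markers of other cells and of the cell cycle also moved with the rescue. The summed level of 6 basophil and mast cell genes was between 64.0 and 142 TPM in *Firre* rescue libraries, against 1052 to 9045 TPM in WT and 2918 to 4291 TPM in ∆*Firre* libraries, with all 6 genes called lower against both groups on the deposited scale, where 19.3% (from ∆*Firre*) and 19.4% (from WT) of all genes were. *Ms4a2*, a subunit of the IgE receptor, reached at most 0.128 TPM in the rescue. The sum of 8 B cell genes was between 835 and 1340 TPM in the rescue, against 215 to 420 TPM in WT and 282 to 373 TPM in ∆*Firre*, with 7 genes called higher and *Ms4a1*, a gene of later B cells, lower against both groups on that scale, where 8.58% and 4.82% of all genes were called higher. Of 15 cell cycle genes, 7 were called higher than in ∆*Firre* on the deposited scale, 10 after rescaling, and 14 after the GC correction, where 8.58%, 13%, and 13.7% of all genes were called higher. Among them were *Birc5* (49.7 ± 5.15 and 70.2 ± 7.79 TPM) and *Rrm2* (151 ± 19.2 and 207 ± 16.9 TPM). The sum of 15 cell cycle genes overlapped among the groups, with 2328 to 3095 TPM in ∆*Firre* and 2872 to 3348 TPM in the rescue. The sums of 6 ILC2 genes were 86.7 to 109 TPM in ∆*Firre* and 42.1 to 66.3 TPM in the rescue. *Areg* was at 0 in all 12 libraries, and *Il13* was at 0 in every ∆*Firre* and rescue library and reached 0.175 TPM in WT. Neutrophil and monocyte, T cell, and erythroid sums overlapped among the groups. Within these lists, *Mpo* was called lower against both groups (−0.56 from ∆*Firre* and −0.62 from WT as deposited), also after rescaling and after the GC correction. *Trac* was called lower against both on the deposited scale (−1.26 and −1.79), a call that the GC correction ended against ∆*Firre*. *Hba-a2* was called higher than in WT (1.83). The sum of 5 plasmacytoid dendritic genes was higher in the rescue (1418 to 1938 TPM) than in the other groups (806 to 999 TPM). *Ly6d* alone was at 1065 to 1560 TPM in the rescue. Of these 5 genes, 2 were called higher than in ∆*Firre* and 2 lower on the deposited scale (8.58% and 19.3% of all genes), the lower ones being *Tcf4* (−0.65, with −0.27 after the GC correction) and *Ccr9* (−0.75, with −0.41 after it). The part of these in the differences of the 10 genes was not tested. In these sorted populations, fewer cells of a type and less RNA per cell cannot be told apart.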

How the data were processed

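CLPs were sorted by the authors into TRIzol, RNA was extracted on columns, and poly(A)+ libraries were made with the CATS kit. Per the study's methods and processing notes, the authors trimmed reads with cutadapt, mapped them to mm10 with TopHat2 2.1.1 and the Gencode vM9 annotation, and counted them with featureCounts. Settings for strand and for reads that map to several places are not given in the sources used here. The deposited values are TPM for 47643 genes and 12 libraries (4 per group), and each library has the same total. The TPM values of a gene are whole multiples of what 1 read is worth, from which reads were recovered for 99.99% of the 14479 tested genes (within 0.02 reads, and 0.04 for the highest counts); recovered totals were 10900924 to 32302565 reads per library. These reads carry no molecular identifiers.

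Genes whose mean over the libraries reached 1 TPM were tested as log2(TPM + 1), with a pseudocount of 1, by limma 3.58.1 (lmFit and eBayes with trend, R 4.3.3), with the 3 groups in one fit, 2-sided, and called where the p adjusted by Benjamini-Hochberg over all tested genes was up to 0.1. Fold changes on this scale understate the change of low genes. As the deposited values are TPM, the test on recovered reads was an alternative. P-values measure the spread among libraries of a group. Ratios were tested by exact permutation. Alternatives were 2 pseudocounts (0.1 and 5), 2 filters, rescaling by the median ratio of genes, a spline fit of each library on GC content (4 degrees of freedom, 13086 genes with a value), limma-voom on recovered reads, the 2 groups alone, no trend, an adjusted p of 0.05, a range covariate, a replicate block, and each library left out. For ∆*Firre* against WT, log2(TPM + 1) values of 14479 genes were simulated with normal noise. In them, 200 genes above a set level were changed by 1, of which 159 were called, with 16 false calls. A change of 1 is larger than any difference of the 10 genes in this comparison (−0.12 to 0.042). How often changes of that smaller size would be called was not tested.

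The 10 genes, the lists, and the tests were chosen with earlier results of these data known. Of other genes, those called were named, up to 3 per list, comparison, and direction, by the size of the difference, with *Firre*, *Ezh1*, and, for *Ctcf*, *Ezh2*, and *Npm1*, the 3 most like genes outside the lists. *Il7r*, *Flt3*, *Dntt*, *Ms4a2*, *Il13*, and *Areg* were named as defining markers. Gene names and promoters came from RefSeq (GRCm38.p6) tables. Values were joined to gene names by ID. Of 157 list symbols, 155 were matched. The values of 1 further gene that this rule names are not reported here.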

Additional observations from a re-analysis of the deposited data

Results flagged for a closer look

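Of 51 sets of 4 libraries compared, 3 held a library that lay apart from the other 3 by more than Dixon's 95% critical value (the gap to the nearest library divided by the whole range), where chance gives about 1 in 20, or 2.55 sets. *Rad21* in ∆*Firre* library 11 was at 8.33 in log2(TPM + 1), or 321 TPM, where the other ∆*Firre* libraries were at 8.45 to 8.47. *Stag2* in WT library 8 was at 7.29, or 156 TPM, where the other WT libraries were at 7.60 to 7.63. *Suz12* in WT library 10 was at 7.75, or 214 TPM, where the other WT libraries were at 7.68 to 7.69. Without WT library 8, the difference of *Stag2* between *Firre* rescue and WT was −0.32 (limma adjusted p = 0.0301), where it was −0.24 (adjusted p = 0.104) with it.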

How the results depend on the processing

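Between ∆*Firre* and WT, 0 of the 10 genes were called in any of the 25 alternatives. The number of all genes called was 6 with no filter, 1 with the 2 groups alone, 1 with the range of library numbers as covariate, 0 with limma-voom (377 at an unadjusted p under 0.05), and 1 to 5 with a library left out (1 without ∆*Firre* library 9 or 11, and 5 without ∆*Firre* library 12). The limma-voom fit thus missed the deleted gene *Firre* as well. Rescaling by the median ratio turned the small differences of *Ctcf* (to 0.030), *Smc3* (0.040), *Stag1* (0.059), and *Eed* (0.0087), as did limma-voom (0.027, 0.036, 0.051, and 0.0070), and the GC correction turned those of *Rad21* (−0.015) and *Npm1* (−0.023). Library numbers 8 and 11 occur in both groups, but libraries of the same number did not deviate together (r of −0.033 and −0.041), and the labels do not say what a number stands for. With the replicate block 3 genes and 0 of the 10 were called, and with the block and the GC correction *Rad21* was at −0.012 and *Npm1* at −0.023.

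In *Firre* rescue against ∆*Firre*, the number of the 10 genes called moved from 5 to 1 after rescaling, to 2 without the trend, to 2 at an adjusted p of 0.05, to 0 with limma-voom, and to between 1 (without ∆*Firre* library 12) and 6 (without rescue library 3) with a library left out. It was 2 without ∆*Firre* library 8 or rescue library 4, and 3 without ∆*Firre* library 11, rescue library 1, or rescue library 2. The number of all genes called was 4043 of 14479 in the main fit, 2554 with the GC correction, and 2682 at an adjusted p of 0.05. With a library left out it ran from 2820 to 4460. Rescaling turned *Rad21* to 0.070, *Smc1a* to 0.0030, *Ezh2* to 0.11, and *Eed* to 0.11, and limma-voom gave 0.069, 0.0058, 0.11, and 0.12. The GC correction turned *Rad21* to 0.31, *Smc1a* to 0.21, *Smc3* to 0.11, *Stag1* to 0.19, *Stag2* to 0.18, *Ezh2* to 0.36, *Suz12* to 0.16, *Eed* to 0.31, and *Npm1* to 0.23.

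Against WT, the number called moved from 3 to 1 with limma-voom, and was 2 to 4 with a library left out. The number of all genes called was 3512 of 14479 in the main fit, 1996 with the GC correction, and 2263 with the 2 groups alone. With a library left out it ran from 2670 to 4349. Rescaling turned *Rad21* to 0.15, *Ezh2* to 0.063, and *Eed* to 0.12, as did limma-voom (0.15, 0.059, and 0.12). The GC correction turned *Rad21* to 0.30, *Smc1a* to 0.069, *Smc3* to 0.044, *Stag1* to 0.14, *Stag2* to 0.18, *Ezh2* to 0.22, *Suz12* to 0.034, *Eed* to 0.23, and *Npm1* to 0.21. Of 22 alternatives, *Suz12* was called lower in 19 against ∆*Firre* and 20 against WT, *Smc3* in 18 and 19, *Stag1* in 11 and 12, *Stag2* in 13 and 4, and *Npm1* in 7 and 1. Most of the 22 stay on the deposited scale, 12 of them with a library left out. Rescaling, the GC correction, and limma-voom, which change the scale, called none of these genes lower, except *Suz12* against WT after rescaling. Left-out libraries that ended the call of *Stag1* against WT were rescue libraries 1, 2, and 4 and WT libraries 6 and 10, while *Stag2* was called without WT library 8 or ∆*Firre* library 11.

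With a library left out, signs turned for values near 0: *Npm1* (−0.029 to 0.085), *Rad21* (−0.0034 to 0.043), *Smc3* (−0.077 to 0.030), *Stag1* (−0.065 to 0.038), and *Stag2* (−0.038 to 0.10) in ∆*Firre* against WT, *Eed* (−0.064 to 0.11) and *Ezh2* (−0.061 to 0.028) in rescue against ∆*Firre*, and *Ctcf* (−0.014 to 0.076) and *Eed* (−0.12 to 0.046) in rescue against WT. The same held for the log2 ratios of *Rad21* to *Smc3* (−0.023 to 0.083), *Stag1* to *Stag2* (−0.11 to 0.021), and *Suz12* to *Ezh2* (−0.033 to 0.072) in ∆*Firre* against WT, of *Eed* to *Ezh2* (−0.042 to 0.084) and *Stag1* to *Stag2* (−0.081 to 0.046) in rescue against ∆*Firre*, and of *Ctcf* to *Rad21* (−0.010 to 0.12) in rescue against WT. With a pseudocount of 1, no ratio had an adjusted p of 0.1 or less. The cause of these moves was not tested. The 10 genes rest on at least 1338 reads per library, and 4 libraries per group limit the precision.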
